A study of Mus musculus with 15 samples.

Results

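The 7 genes described here are Pml, Rara and the other retinoid receptor genes Rarb, Rarg, Rxra, Rxrb and Rxrg, read probeset by probeset in spleens of mice with acute promyelocytic leukaemia. Their members were all probesets whose only annotated gene symbol was 1 of these 7 names: 100 of the 229581 probesets measured. A probeset is a small group of array probes read together, usually within a single exon, so that 1 gene is measured several times over. The study holds 1 group of 15 arrays, each of total RNA from the spleen of a Bl/6 Taconic mouse with this leukaemia. The titles give each tumour a number (tumor_31, tumor_9500 and so on), and the numbers are used as names below. RNA was taken up in Trizol, 20 ng was amplified to cDNA and labelled with biotin, and the cDNA was hybridised to Affymetrix Mouse Exon 1.0 ST arrays. The labels name no allele, transgene, promoter, treatment or age, and do not state whether each array is a separate mouse, so p-values below measure the spread between these arrays, which may in part be technical. Spleens without leukaemia were not analysed here, so no level below is set against a healthy one.

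Acute promyelocytic leukaemia is defined in patients by a fusion of PML with RARA, the gene of retinoic acid receptor alpha. PML builds the nuclear bodies, protein assemblies held together by SUMO modification, and the fusion protein disperses them. The retinoic acid receptors (RARA, RARB, RARG) bind DNA as heterodimers with the retinoid X receptors (RXRA, RXRB, RXRG), hold corepressors when no ligand is bound and exchange them for coactivators when all-trans retinoic acid binds. Retinoic acid drives leukaemic promyelocytes to mature, which is the basis of treatment with it.

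The promoter of Rarb is shown because Rarb is the best known direct target of the retinoid receptors and was not detected in these tumours. Its stretch in RefSeq (mouse assembly GRCm38.p6, chr14:16575477-16575726, minus strand) is the 250 bases before the annotated start, and capitals mark a pair of receptor half-sites.

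Rarb promoter: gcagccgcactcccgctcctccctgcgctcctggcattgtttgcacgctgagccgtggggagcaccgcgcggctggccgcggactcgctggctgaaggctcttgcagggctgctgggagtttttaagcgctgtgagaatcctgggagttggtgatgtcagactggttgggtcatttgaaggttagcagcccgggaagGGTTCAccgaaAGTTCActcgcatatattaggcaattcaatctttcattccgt

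The capitals form a direct repeat with 5 bases between half-sites (DR5), the arrangement known to bind RAR with RXR, and lie from base -53 to base -37 before the start (chr14:16575513-16575529). Half-sites searched were the consensus AGGTCA and its variants AGTTCA, then GGGTCA, then GGTTCA, on both strands, in windows of 250 bases before to 50 bases after each start. All 7 genes matched the RefSeq promoter table, with 14 promoters between them. A DR5 occurred in 0.0974% of the 32851 promoters of the table, and in that of Rarb alone among the 7 genes. Repeats with a spacing of 2 bases (0.268% of promoters) or 1 base (0.222%) occurred in none of the 14 promoters. The interferon motif GAAANNGAAA (3.44% of promoters) occurred in a promoter of Rarg, and the STAT motif TTCNNNGAA (8.30%) in promoters of Rara and Rarb, where it overlaps the DR5. A match is a stretch of letters and not a bound site.

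The median deposited intensity per array ran from 108 to 129. Correlations between pairs of arrays over the levels of detected genes ran from 0.85 to 0.97. The arrays tumor_9509 and tumor_9514 stood apart, being more like each other (0.95) than like any other array (at most 0.90). The median detected gene lay 0.23 log2 units below its median over tumours in tumor_9509 and 0.17 below in tumor_9514. All 4 promyelocyte markers were detected, among them Mpo, the myeloperoxidase of primary granules, at 12.91 ± 0.27 log2 intensity (SD, n = 15). The detection limit, described below, was passed by 9779 of 16299 genes. Of markers of other spleen cells, 3 of 5 measured for B cells, 4 of 5 for T cells, 2 of 4 for NK cells, 4 of 6 for red pulp macrophages, 4 of 5 for erythroid cells and 3 of 4 for megakaryocytes passed it, near that share of all genes. In whole spleen, fewer cells of a type and less RNA per cell cannot be told apart.

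The level of a gene is the median log2 intensity of its probesets. A gene counted as detected when its mean over tumours was above 6.41, a limit at the 40th percentile over every gene with a symbol. By this measure 5 of the 7 genes were detected: Pml, Rara, Rarg, Rxra and Rxrb. Levels of different genes depend on their probes and do not rank amounts of RNA. In the gene lists below, words such as "led by" or "at the top" refer only to brightness on the array. Rara varied most of the 5: its SD of 0.48 exceeded that of 87.0% of 9462 detected genes (those with 3 probesets or more), whose median SD was 0.29.

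Rara (chromosome 11, 13 probesets), the receptor gene of the fusion, was 8.83 in tumor_31 and 8.71 in tumor_9500, and between 7.17 in tumor_33 and 7.92 in tumor_9520 in the other 13 tumours. These 2 tumours lay above all others by a gap of 0.79 log2 units, while no further gap between neighbours in the order was as wide. The whole range was 3.15-fold, around a mean of 7.75 ± 0.48 (SD, n = 15). A gap of this size or more occurred in 4.48% of the 9462 genes. After quantile normalization Rara stood at 8.70 in tumor_31 and 8.63 in tumor_9500, with tumor_9514 next at 8.08. The 2 tumours thus stayed highest, above a narrower gap. In tumor_31, 12 of 13 Rara probesets lay above their own median over tumours, with a median excess of 1.16 log2 units (mean 0.95 ± 0.61, SD over probesets). In tumor_9500 it was also 12 of 13, with a median excess of 0.88 (mean 0.93 ± 0.51). Granule and chemotaxis genes of late neutrophils were high in the same tumours: the summed level of the 7 late neutrophil markers was highest in tumor_31 (14.98 log2 intensity) and next in tumor_9500 (14.87), though tumor_9514 (14.86) and tumor_9509 (14.84) lay close, with Rara at 7.83 and 7.56. Their part in the Rara level was not tested.

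Pml (chromosome 9, 17 probesets), the gene of the nuclear body scaffold, ran from 6.48 in tumor_9504 through a median of 6.999 to 7.61 in tumor_31, with a mean of 7.0 ± 0.32 (SD, n = 15). Its order had no clear break, the widest gap being 0.21 log2 units. The low end was held by tumor_9504, tumor_9509 (6.55) and tumor_9514 (6.59), the last 2 being the arrays that stood apart. In tumor_9504 all 17 Pml probesets lay below their medians over tumours (mean deviation -0.39 ± 0.26, SD over probesets). In tumor_31, the highest, 14 of 17 lay above (mean 0.45 ± 0.41). Tumours with 2-digit numbers had a mean Pml level of 7.20 ± 0.27 (n = 5) and those with 4-digit numbers 6.90 ± 0.30 (n = 10), a difference of 0.30 that did not pass limma's test over 9779 genes (adjusted p = 1.00). The other 4 detected genes differed by -0.02 to 0.16 log2 units between the same tumours, also with adjusted p = 1.00. Limma called 0 of 9779 genes in this check, against 227 (2.32%) at an unadjusted p under 0.05.

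**Figure D1:**
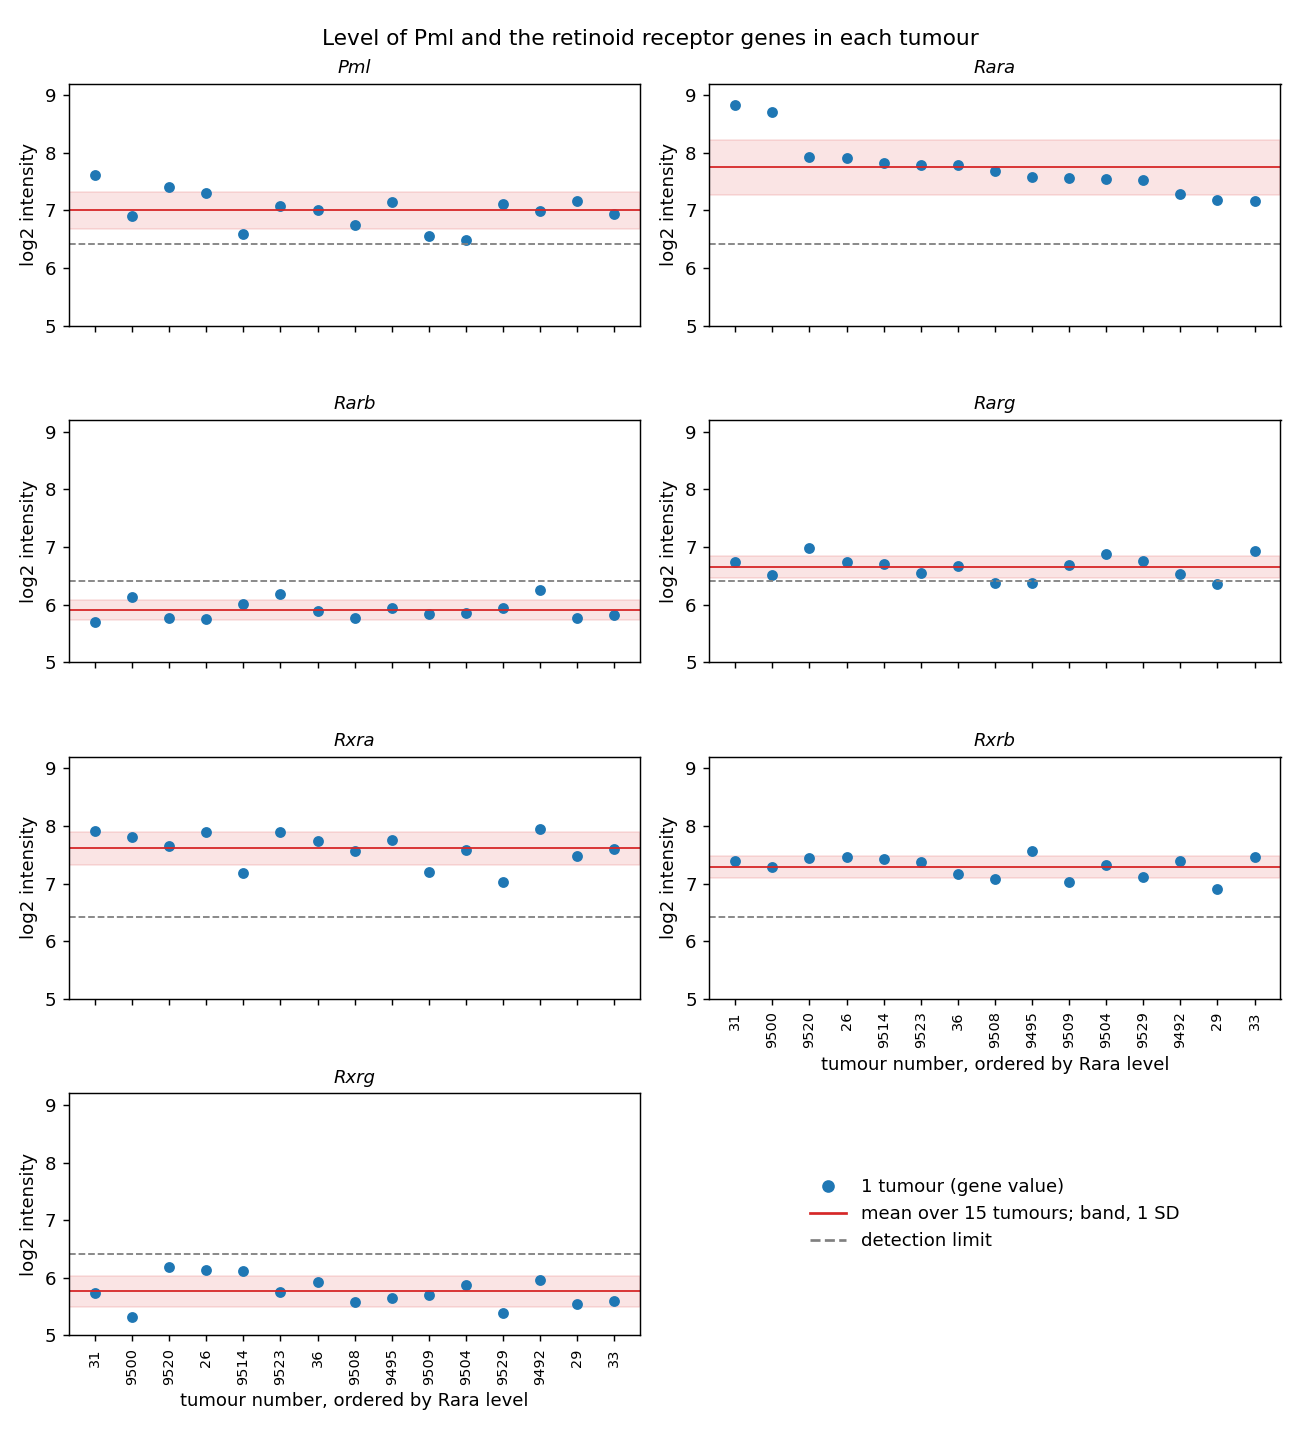
Level of each of the 7 genes (y axis, log2 intensity) in the 15 tumours, ordered on the x axis by Rara. Points are tumours, red lines and bands the mean and SD, and dashed lines the detection limit. Rara stands at 8.83 and 8.71 in tumor_31 and tumor_9500 and at 7.92 or less elsewhere, whereas Rarb and Rxrg lie below the limit throughout.

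Rarb (chromosome 14, 11 probesets), itself induced by retinoic acid in many cells, had a level between 5.71 in tumor_31 and 6.26 in tumor_9492 (mean 5.91 ± 0.17) and exceeded the limit in 0 of 15 tumours. Of its 11 probesets, 3 had a mean above the limit, the highest being 7.23 ± 0.34 log2 intensity. Rarg (chromosome 15, 15 probesets), the receptor gene linked to stem cell maintenance in mouse marrow, ran from 6.35 in tumor_29 through 6.68 to 6.98 in tumor_9520 (mean 6.65 ± 0.20). It exceeded the limit in 12 of 15 tumours, so its level sat close to what counts as detected here.

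Rxra (chromosome 2, 17 probesets), the main retinoid X receptor of myeloid cells, ran from 7.03 in tumor_9529 through 7.66 to 7.95 in tumor_9492 (mean 7.62 ± 0.29). Its 3 lowest tumours were tumor_9529, tumor_9514 (7.18) and tumor_9509 (7.20), a 0.28 gap below tumor_29 (7.48). After quantile normalization tumor_9529 stayed lowest at 6.98, and tumor_9514 and tumor_9509 stood at 7.39 and 7.42, next to tumor_29 at 7.43. Rxrb (chromosome 17, 14 probesets), which is expressed in most tissues, ran from 6.91 in tumor_29 through 7.38 to 7.56 in tumor_9495 (mean 7.29 ± 0.19). Rxrg (chromosome 1, 13 probesets), known mainly from muscle and brain, ran from 5.32 in tumor_9500 to 6.19 in tumor_9520 (mean 5.77 ± 0.27) and exceeded the limit in 0 tumours. How far the odd-ranked and even-ranked probesets of a gene told the same story over tumours differed widely: the correlation of the 2 sets was 0.86 for Pml, 0.81 for Rara and 0.85 for Rxra, and 0.13 to 0.30 for the other 4 genes. The small tumour-to-tumour differences of Rarb, Rarg, Rxrb and Rxrg were thus weakly reproduced between their own probesets.

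The exon-level question was whether single probesets of Pml or Rara leave the pattern of their gene. The annotation used here pairs probesets with symbols and gives no positions, so probesets are named by their identifiers, with no place in the gene, no exon number and no side of a fusion breakpoint. Each probeset was set against the median of the other probesets of its gene by Pearson's r over the 15 tumours, as a description. A departure is a deviation of at least 1 log2 unit (2-fold) from the level of the gene in a tumour, after removing the probeset's usual offset. Departures were counted for probesets with a mean above 6.41 in detected genes.

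In detected genes with 3 probesets or more, 34.6% of 108126 probesets above the limit followed their gene closely (r of 0.7 or more). Shares of probesets given below as over all genes refer to bright probesets of this kind. Of the 13 Rara probesets 11 lay above the limit, and 8 of these 11 bright probesets followed the gene closely. These 8 were 5035754 (r = 0.88, mean 7.78), 4428036 (0.87, 7.72), 4835928 (0.85, 8.53), 5534347 (0.79, 7.58), 4612180 (0.78, 6.52), 5099546 (0.78, 8.21), 5550512 (0.76, 7.89) and 4439647 (0.75, 8.21). Probeset 5035754 read 9.11 in tumor_31, and its lowest value was 7.11 in tumor_9492. The 2 highest tumours were tumor_31 and tumor_9500 in 9 of the 11 bright probesets, whereas 17.2% of the 108126 probesets shared the 2 highest tumours of their gene. Without these 2 tumours, r of the 8 probesets was 0.09 to 0.57, so most of the agreement rested on them.

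The 2 tumours did not stand out together in every Rara probeset. Probeset 5051729 was flat: it read 7.92 in tumor_31 and 7.89 in tumor_9500, within its range of 7.81 to 8.49 over 15 tumours (8.07 ± 0.22), and its r with the rest of the gene was -0.23. In tumor_31 it departed from the gene by -1.32 log2 units, and it departed in tumor_9500 too. The brightest Rara probeset, 5013671 (10.12 ± 0.30), read 10.27 in tumor_31 and 10.56 in tumor_9500, against a median of 10.24, and missed the threshold in tumor_31 with -0.97 (r = 0.49). The dimmer probesets 5607575 (6.39 ± 0.35, r = 0.52) and 4610947 (4.15 ± 0.63, r = 0.49) lay below the limit. Both 5051729 and 5013671 lay well above the limit.

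Probeset 4612180 varied most, with an SD of 0.96. It read 8.31 in tumor_31 and 8.05 in tumor_9500, at most 7.13 in the others, 5.22 in tumor_33 and 4.90 in tumor_26. In tumor_26 the whole gene stood at 7.91, so this probeset departed by -1.80 log2 units, the largest departure within Rara. Of the remaining departures, those of 4596217 (6.45 ± 0.51, r = 0.45, -1.53) and 5534347 (-1.09) were both in tumor_9514. In all, 4 of 11 bright Rara probesets departed in at least 1 tumour, against 19.3% over all genes. Without tumor_9509 and tumor_9514 it was 2 of 11, namely 5051729 and 4612180, against 9.27% over all genes.

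**Figure D2:**
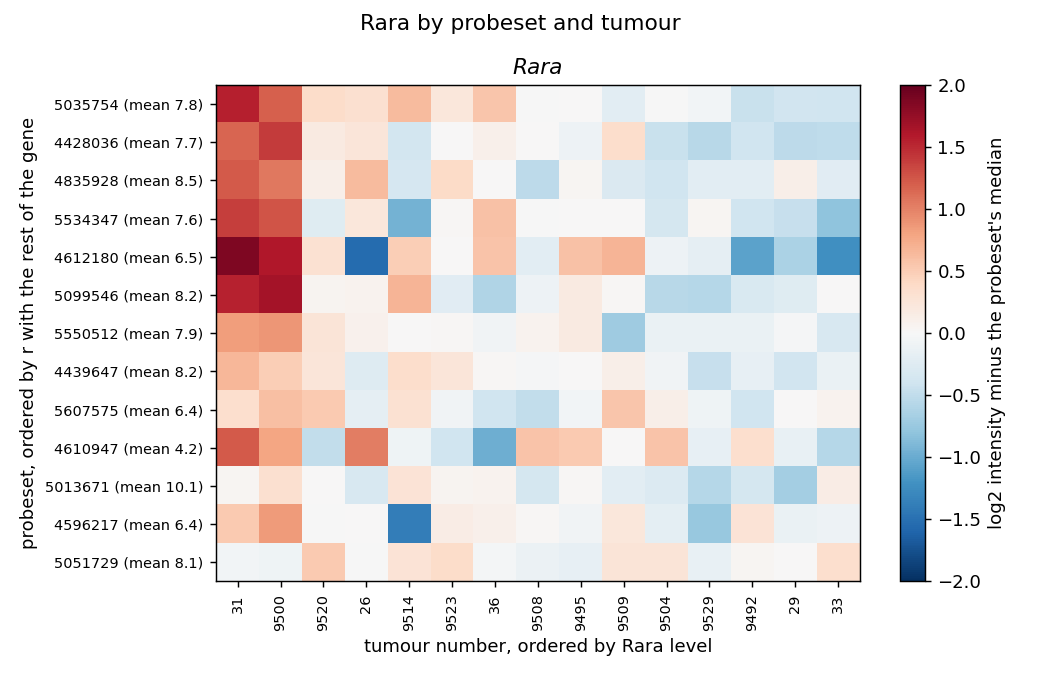
The 13 Rara probesets (rows, with mean log2 intensity) in the 15 tumours (columns), coloured by log2 intensity minus the median of the probeset. Red columns at the left are tumor_31 and tumor_9500, where 12 of 13 probesets lay above their medians. Row 5051729 stays near 0 in both, and 4612180 is low in tumor_26.

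Pml probesets followed their gene without a pair of tumours that set the pattern. Of 13 bright probesets, 6 had r of 0.7 or more, against the same 34.6% over all genes: 4857590 (r = 0.84, mean 7.82), 5120987 (0.83, 8.89), 4600556 (0.80, 7.23), 5265690 (0.79, 6.58), 5120475 (0.75, 6.49) and 5020878 (0.73, 8.31). Without tumor_31 and tumor_9500, r of these 6 was 0.68 to 0.84, and without tumor_9509 and tumor_9514 it was 0.59 to 0.82. The 7 other bright probesets had lower r: 5557104 (0.66, mean 6.66), 4571057 (0.60, 7.43), 4723033 (0.44, 6.83), 4489970 (0.44, 7.31), 4885841 (0.39, 8.85), 4957862 (0.25, 7.07) and 4836308 (0.08, 7.10). Below the limit lay 4905896 (6.17), 5541254 (6.14), 4896406 (5.65) and 4557311 (6.08), with r of 0.47, 0.43, 0.40 and 0.08. None of the 13 bright Pml probesets had r below 0, against 12.99% of bright probesets over all genes, and none of the 4 dim ones did.

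Within Pml, 2 of 13 bright probesets departed (15.4%), near the 19.3% over all genes. Probeset 4489970 read 5.61 in tumor_9514, against 6.44 to 8.20 in the other 14 tumours. Probeset 5120475 read 4.81 in tumor_9514 and 5.06 in tumor_9509, against 6.22 to 7.26 in the other 13. The departure of each in tumor_9514 was -1.43 log2 units. Both tumours are the arrays that stood apart, where 7.58% (tumor_9514) and 6.86% (tumor_9509) of all bright probesets departed, against 0.38% to 2.45% in the other 13 arrays. Without them 0 Pml probesets departed.

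The bright probesets of Rxra, the partner receptor, are described in 2 sets, divided at r of 0.7. Of 14 bright probesets, 7 followed the gene with r of 0.74 to 0.91 (34.6% of bright probesets over all genes had r of 0.7 or more), led by 4763813 (mean 9.75, r = 0.91), 4336093 (7.78, 0.89) and 4693756 (8.28, 0.87). The other 7 had r of -0.19 to 0.48 and a smaller spread, their SD being 0.19 to 0.45 against 0.44 to 0.72. The lower set was not dim as a whole: 4455361 had a mean of 8.72 and r of -0.16. Without tumor_9509 and tumor_9514 r was 0.69 to 0.90 in the upper set and -0.13 to 0.56 in the lower. As the sets were cut on r in these same tumours, nothing is read from that difference. The same cut in Pml gave 0.59 to 0.82 and 0.21 to 0.49 without the 2 arrays. The division of Rxra was noticed in the data and was not tested.

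Rxra also held the most departures of the 7 genes, 7 of 14 bright probesets, against 19.3% over all genes. In tumor_9509, 4 of the 7 closely following probesets departed downward, by -1.81 (5567240), -1.78 (4764159), -1.40 (5322673) and -1.14 (4525356) log2 units. Probeset 4764159 read 6.28 there, against 7.50 to 9.03 in the other 14 tumours. In tumor_9514, 4455361 and 5107055 departed upward by 1.34 and 1.12. The 1 departure outside these 2 arrays was 5575898, which read 6.59 in tumor_9492, the tumour with the highest Rxra level, against 7.08 to 8.05 elsewhere. Without the 2 arrays 1 of 14 departed, near the 9.27% over all genes.

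**Figure D3:**
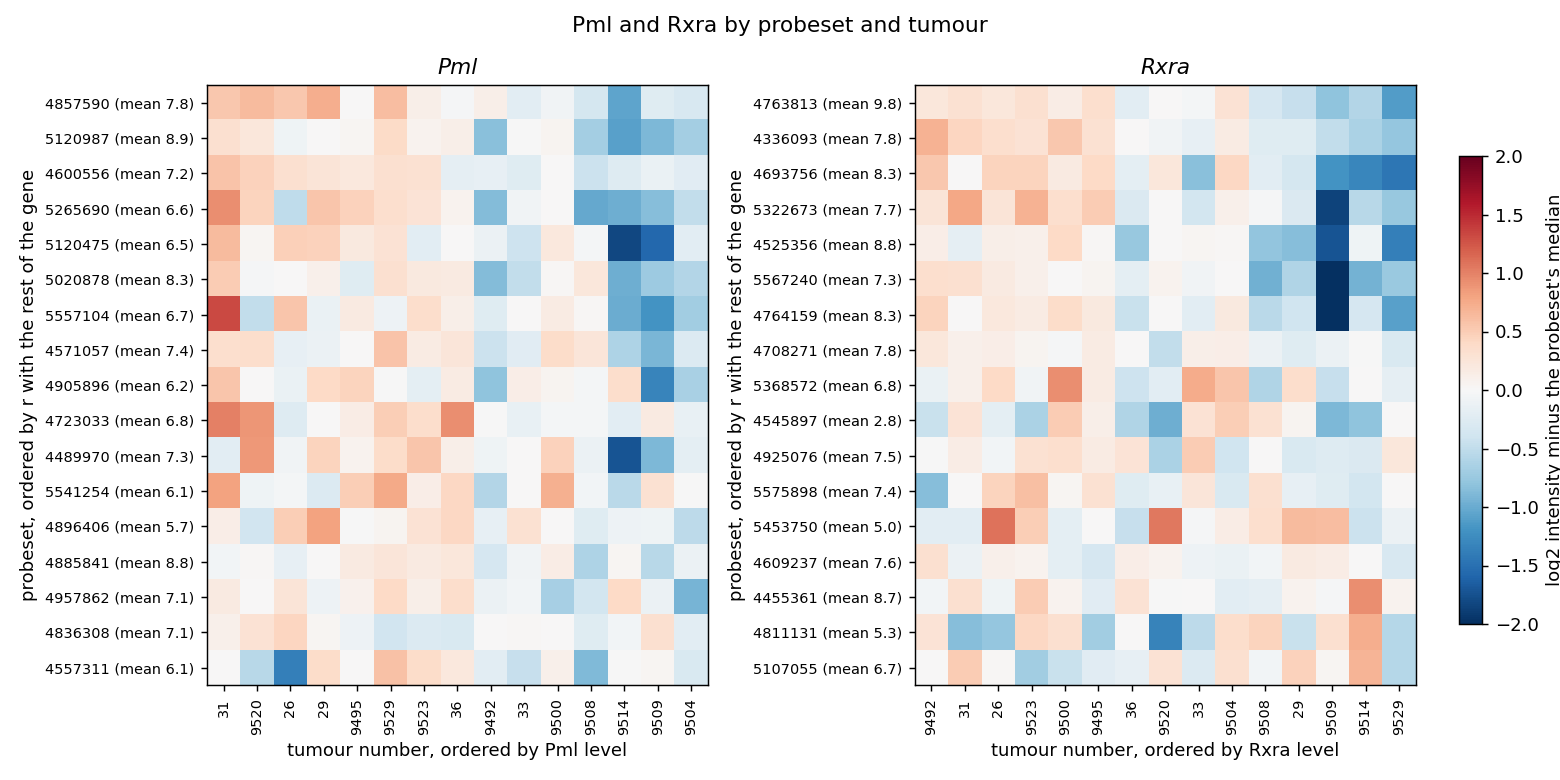
The 17 probesets of Pml (left) and of Rxra (right) in the 15 tumours, coloured as log2 intensity minus the median of the probeset, with tumours ordered by the level of each gene. Blue cells gather in tumor_9509, tumor_9514 and tumor_9529 for the upper Rxra rows, and the lower 10 Rxra rows do not share that pattern. In Pml the darkest blue cells are 4489970 and 5120475 in tumor_9514.

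Among the remaining genes, Rxrb had 1 departing probeset of 11 bright ones, 5003439, which lay 1.39 log2 units above its gene in tumor_9509. Rarg had 0 of 9, while Rarb and Rxrg had no probeset that could be counted. Over all 7 genes, 14 of 58 bright probesets departed (24.1%, against 19.3% over all genes), and 3 of 58 (5.17%, against 9.27%) without tumor_9509 and tumor_9514. The share over the 7 genes was therefore near that of other genes, and was below it without the 2 arrays. Just inside the threshold lay 5534347 of Rara (-1.09) and 5107055 of Rxra (1.12), and just outside it 4318473 of Rxrb (-0.99) and 5013671 of Rara (-0.97). None of the 11 bright Rxrb or 9 bright Rarg probesets had r of 0.7 or more. The probesets with the largest SD of departure in these genes and in Rxra were nearly all below the limit. They were 5310778, 4396030 and 4702546 in Rarg (means of 5.77, 4.89 and 5.60 log2 intensity) and 5328793, 4991873 and the bright 5003439 in Rxrb (5.49, 4.99 and 7.99). In Rxra they were 4811131, 5453750 and 4545897 (5.35, 4.99 and 2.76), in Rarb 4358830, 4801078 and 4453901 (5.71, 2.97 and 4.61), and in Rxrg 5495330, 5036531 and 4996384 (4.44, 4.76 and 3.36). The largest single departure among these 15 was that of 5310778 of Rarg, -2.26 log2 units in tumor_29. In Rarb, 1 probeset (5352210, mean 7.03 ± 0.21) had r of 0.81 with the rest, though the gene as a whole was not detected.

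**Figure D4:**
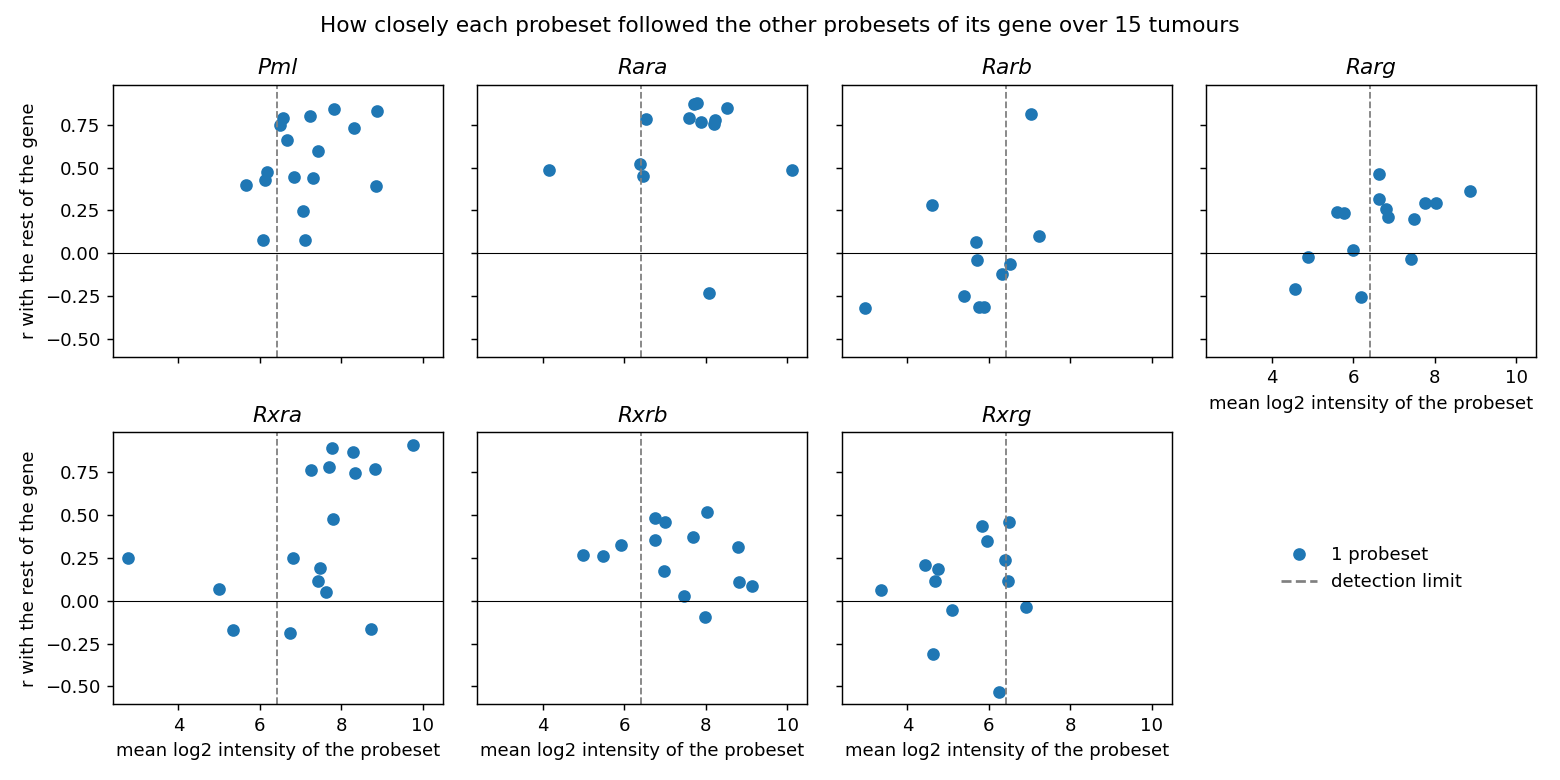
Pearson's r of each probeset with the median of the other probesets of its gene over 15 tumours (y axis) against its mean log2 intensity (x axis), 1 panel per gene. Dashed lines mark the detection limit. High values are found in Pml, Rara and Rxra, where 6, 8 and 7 probesets reached 0.7, and in 1 probeset of Rarb. Probesets above the limit with r below 0 are found in Rara, Rxra, Rarg, Rxrb, Rarb and Rxrg.

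Whether the receptor genes moved together was asked for the 10 pairs of the 5 detected genes, each inside the test of that gene against all other detected genes (two-sided permutation test, Benjamini-Hochberg over 9778 genes). No pair passed, and r ran from -0.15 to 0.48. Rxra with Rxrb had r = 0.48 (rho = 0.48, p = 0.0675, adjusted p = 0.289), and 0.65 without tumor_9514 and tumor_9529, the tumours farthest from the median of Rxra. For this pair r was 0.56 without tumor_9509 and tumor_9514 and 0.53 in the 4-digit tumours. It fell to 0.34 after centring and 0.33 after quantile normalization. Pml with Rxra had r = 0.47 (rho = 0.43, p = 0.0769, adjusted p = 0.314), and 0.21 without tumor_9509 and tumor_9514. The 2 fusion partners, Pml with Rara, had r = 0.36 (rho = 0.30, p = 0.187, adjusted p = 0.454). That value was -0.01 without tumor_9504 and tumor_31, the tumours farthest from the median of Pml, so it rested on them. It was 0.10 in the 10 tumours with 4-digit numbers, and the 5 with 2-digit numbers are too few for a value.

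The genes most like Pml over the tumours were Wipf2 (r = 0.89, rho = 0.90), which encodes a partner of the actin regulator WASP, and Klf5 (r = 0.88, rho = 0.79), a zinc finger transcription factor. Both reached the smallest p that the permutations can give (1e-05, adjusted p = 0.0489), and they were the only genes called for Pml, 0.0205% of 9778. Wipf2 ran from 7.66 in tumor_9514 to 8.94 in tumor_31, and Klf5 from 7.69 in tumor_9504 to 9.21 in tumor_31, so both shared the highest tumour of Pml. Without tumor_9504 and tumor_31 their r was 0.91 and 0.79. Both calls were lost, with 0 genes called, when arrays were centred or quantile normalized or tumor_9509 and tumor_9514 were left out, though r stayed between 0.81 and 0.85 for each in those 3 settings. With the mean over probesets in place of the median 957 genes were called for Pml, and 10 without tumor_9504 and tumor_31. Wipf2 lies on chromosome 11 in the neighbourhood of Rara, with the protein-coding gene Cdc6 between them. Next came Rnpep (0.86), Nek7 (0.84) and Dbnl (0.84), and the most opposite were Ccdc96 (-0.81), Flywch2 (-0.79) and Tmem60 (-0.77), none of them called.

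No gene (0%) was called for Rara by Pearson's r or by Spearman's rho, and 656 had an unadjusted p under 0.05 for r and 492 for rho. Its most alike genes were Rgs3 (r = 0.87, rho = 0.69, p = 0.00036, adjusted p = 0.384), Uba7 (0.84, listed as Ube1l), Irgm2 (0.84, listed as Iigp2), Irf7 (0.83) and Snrk (0.82). Rgs3 is a regulator of G protein signalling, Uba7 the enzyme that activates the ubiquitin-like ISG15, Irgm2 an interferon-induced GTPase and Irf7 the interferon regulatory factor of the type I response. Irgm2 was 9.99 in tumor_31 and 9.78 in tumor_9500, against 6.84 to 8.56 in the other 13 tumours. Irf7 was 8.21 in tumor_31 and 7.43 in tumor_9500, against 6.59 to 7.14. In both genes the 2 tumours lay above the other 13, as in 3.77% of 9778 detected genes. Since the genes were picked for likeness to Rara, whose 2 highest tumours these are, nothing is read from that. Without them, r was 0.47 for Rgs3, 0.23 for Uba7, 0.41 for Irgm2, 0.38 for Irf7 and 0.10 for Snrk, so these relations rested largely on the 2 tumours. The most opposite genes were Slc28a1 (r = -0.87), a nucleoside transporter, Paics (-0.75), an enzyme of purine synthesis, and Fam25c (-0.71), whose r was -0.52, -0.61 and -0.45 without the 2 tumours.

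**Figure D5:**
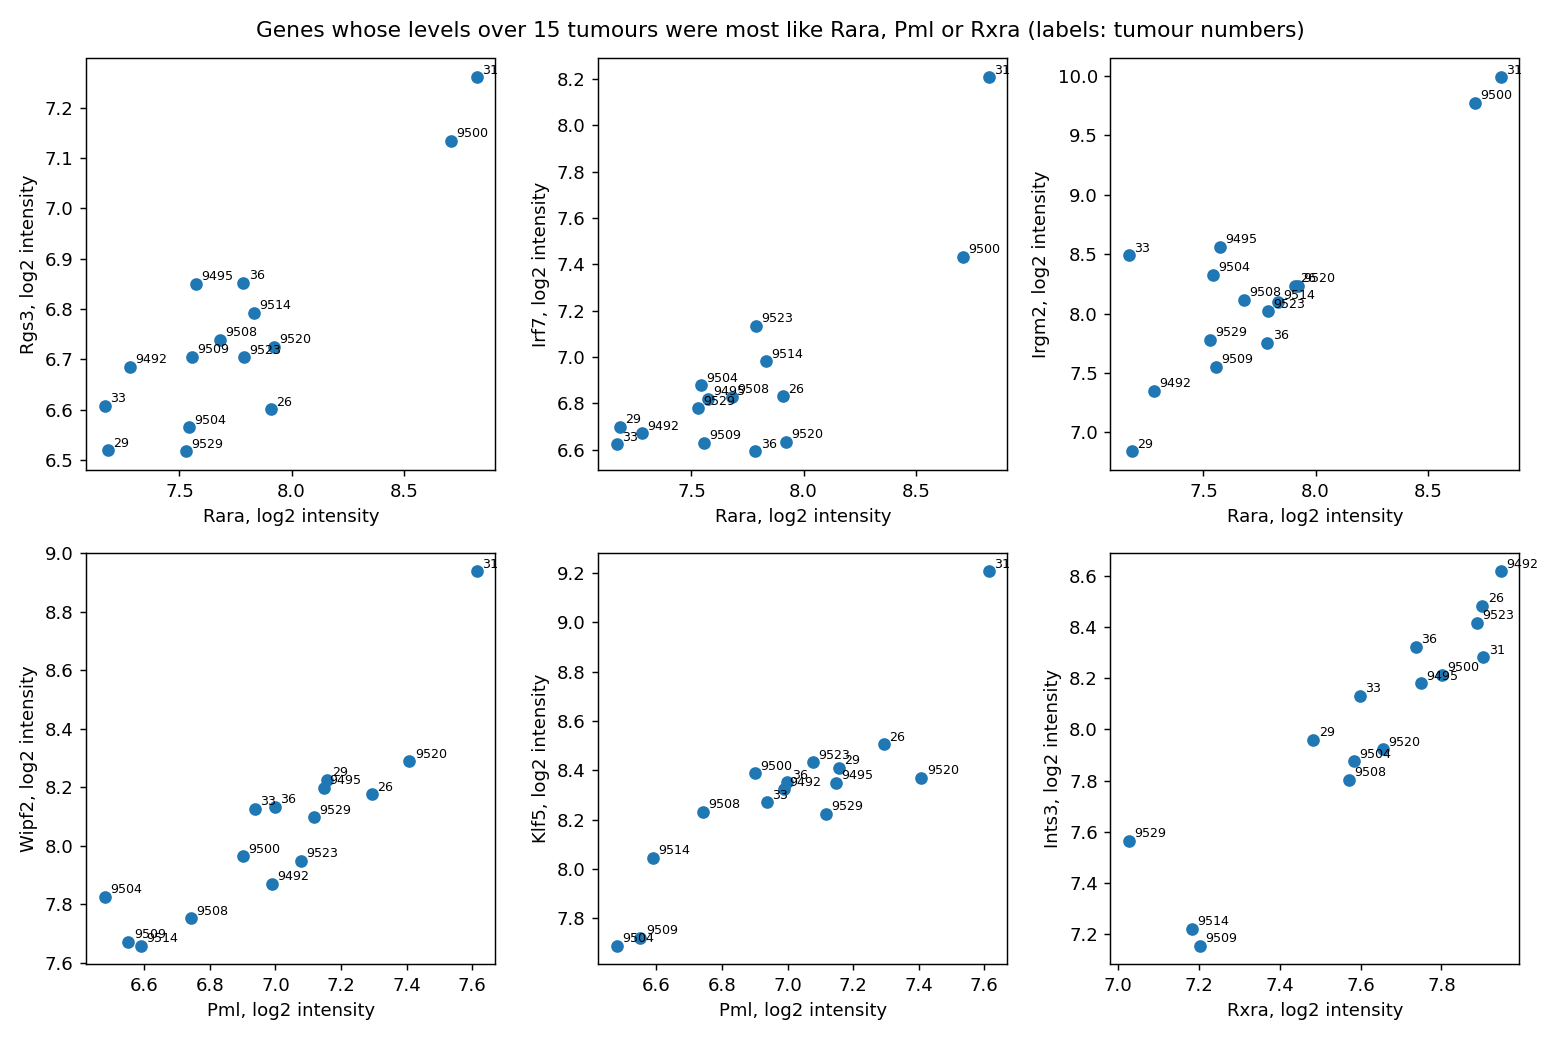
Levels of 6 genes (y axes, log2 intensity) against the level of Rara, Pml or Rxra (x axes, log2 intensity), with 1 labelled point per tumour. In the Rara panels tumor_31 and tumor_9500 lie at the upper right, apart from the other 13, and in the Pml panels tumor_31 is highest for both genes. In the Rxra panel Ints3 is lowest in tumor_9509 and tumor_9514.

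For Rxra, 119 genes were called, 1.22% of 9778, of which 118 correlated positively and 1 negatively. At the top stood Ints3 (r = 0.92, rho = 0.92, adjusted p = 0.0244), a subunit of the Integrator complex, the anion exchanger Slc4a2 (0.90), the clathrin adaptor Ap2a2 (0.90), the spindle protein gene Wdr62 (0.89) and the repressor Cic (0.89). The 1 opposite gene called was Fxyd4 (-0.82), which encodes a regulator of the sodium pump, and Ccdc63 (-0.76) and Hebp2 (-0.75) followed without a call. Ints3 was 7.15 in tumor_9509 and 7.22 in tumor_9514, against 7.56 to 8.62 in the other 13 tumours. The number of calls moved widely between settings: 4 genes were called without these 2 arrays, 0 when arrays were centred or quantile normalized or with the mean over probesets, and 241 without tumor_9514 and tumor_9529. With probesets above the 25th percentile it was 682. For Ints3 itself r was 0.90 without the 2 arrays, 0.87 after centring and 0.86 after quantile normalization.

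For Rarg and Rxrb 0 genes were called by Pearson's or Spearman's correlation, and 234 and 547 had an unadjusted p under 0.05 for r. Most like Rarg were Pbld2 (r = 0.76), Tmem125 (0.70), Rita1 (0.68), Sh2d1b1 (0.67) and Stx7 (0.66), and most opposite Parp8 (-0.73), Usp37 (-0.71) and Atg12 (-0.71). Most like Rxrb were Plekhg5 (0.79), Zfp629 (0.79), Cers2 (0.78), Slc30a5 (0.78) and Npc2 (0.77), and most opposite Uqcr10 (-0.76), Gigyf2 (-0.76) and Cspp1 (-0.74).

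The genes around the receptors were read from 7 lists, and in none of them did a gene pass the adjusted test with Pml or with Rara. Retinoid uptake and metabolism had 6 of 14 measured genes detected, led by Dhrs3 (7.73 ± 0.43, 7.06 to 8.83) and Rdh10 (7.43 ± 0.34), enzymes that interconvert retinol and retinal. With Pml, 1 of the 6 had a positive unadjusted p under 0.05, near the 17.2% of all genes. It was Rdh11 (6.88 ± 0.38, r = 0.52), a retinal reductase. The median r of the list was 0.12 with Pml and 0.18 with Rara, beside 0.25 and 0.09 over all detected genes. The retinoic acid response list had 6 of 13 detected, led by Cebpe (10.02 ± 0.28), a transcription factor of granulocyte maturation. In the same list Bhlhe40 (6.91 ± 0.36), a circadian and stress repressor, ran from 6.50 to 7.54. None of the 6 had an unadjusted positive p under 0.05 with Pml or Rara, against 17.2% and 5.76% of all genes.

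The receptor corepressors and coactivators were all detected (15 of 15 measured), with Ncor1 (9.27 ± 0.29), the corepressor scaffold, and Gps2 (8.91 ± 0.34), a subunit of its complex, at the top. Tbl1x (8.52 ± 0.43), another subunit, and Med1 (8.67 ± 0.43), the Mediator contact of nuclear receptors, varied most. With Pml, 11 of the 15 had a positive unadjusted p under 0.05, against 17.2% of all genes, and their median r was 0.57, beside 0.25 over all genes. Spearman's rho gave 6 of 15, against 10.4%. With Rara it was 1 of 15, against 5.76%, that being Ncoa3 (r = 0.71, adjusted p = 0.472). Several of these genes, such as Tbl1x, Med1 and Prmt1, were lowest in tumor_9514, where Pml was low and the median detected gene lay 0.17 log2 units below its median over tumours. The part of that array in these correlations was not tested list by list.

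The PML nuclear body list had 13 of 14 measured genes detected. Rnf4 (9.60 ± 0.48), the ubiquitin ligase that recognises SUMO chains on PML, Sp100 (9.52 ± 0.62), a resident of the bodies, and Usp7 (9.08 ± 0.52), a deubiquitinase, were the leading and most variable genes. With Pml, 6 of the 13 had a positive unadjusted p under 0.05, against 17.2% of all genes, among them the SUMO protease Senp1 (r = 0.70, adjusted p = 0.16) and Daxx (r = 0.63), a histone chaperone. The median r was 0.48, beside 0.25 over all genes, and Spearman's rho gave 3 of 13, against 10.4%. Sp100 and Daxx were lowest in tumor_9509 and Usp7 in tumor_9514, arrays where Pml was also low, and Senp1 was lowest in tumor_9504. Over all genes, 1681 had a positive unadjusted p under 0.05 with Pml, and 346 without tumor_9509 and tumor_9514. The part of these arrays in this list was not tested. With Rara, 0 of the 13 had a positive unadjusted p under 0.05, against 5.76% of all genes. Of other genes known as RARA fusion partners in patients, all 7 measured were detected, led by Npm1 (12.08 ± 0.20) and Prkar1a (9.74 ± 0.36). Zbtb16 and Tblr1 of the 9 listed were not measured under these symbols. Nabp1 (8.66 ± 0.58) and Bcor (7.56 ± 0.40) varied most in that list. Stat5b (r = 0.69) and Numa1 (r = 0.65) had unadjusted positive correlations with Pml, 2 of 7 against 17.2% of all genes, and 0 of 7 had one with Rara, against 5.76%. Of the other receptors that pair with RXR, 3 of 12 were detected, of which the thyroid receptor gene Thra (8.16 ± 0.49, from 7.09 in tumor_9514 to 8.74 in tumor_9492) varied most. Ppard (7.02 ± 0.14) and Nr4a1 (6.93 ± 0.26) were the other 2.

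The interferon response list had 4 of 12 measured genes detected, Stat2, Irf1, Irf7 and Irf9. Irf9 (7.10 ± 0.57), the DNA-binding part of the complex that type I interferon activates, was 8.24 in tumor_31 and 8.31 in tumor_9500, against 6.25 to 7.53 in the other 13 tumours. Irf1 was 7.34 and 7.20 in the same 2 tumours, against 6.03 to 7.09. Stat2 (7.06 ± 0.23) was 7.34 in tumor_31 and 7.35 in tumor_9500, only slightly above the 7.30 of tumor_9504. With Rara, 3 of the 4 had a positive unadjusted p under 0.05, against 5.76% of all genes (r = 0.83 for Irf7, 0.77 for Irf9 and 0.54 for Irf1, adjusted p = 0.384, 0.472 and 0.683), and by Spearman's rho 1 of 4, against 3.72%. Without tumor_31 and tumor_9500 r was 0.38 for Irf7, 0.15 for Irf9 and -0.31 for Irf1, so the positive relations rested on these 2 tumours. The other 8 measured genes had means below the limit, and they did not behave alike. Rsad2, an antiviral enzyme that interferon induces, read 7.31 in tumor_31 and 6.78 in tumor_9500, against at most 6.36 in the other 13 tumours. Oasl2, of the oligoadenylate synthetase family, read 6.92 and 7.89 in the same 2 tumours, against at most 6.34. Ifit1 read 5.57 in tumor_31 and 5.61 in tumor_9500, within its range of 5.12 to 6.23 over all tumours, and Ifit2 and Ifit3 did not stand out in both. In all, 6 of the 12 measured genes (Stat2, Irf1, Irf7, Irf9, Oasl2 and Rsad2) lay higher in both tumours than in the other 13, against 2.71% of 16298 genes. The same held for 4 of the 7 late neutrophil markers (Ltf, Mmp8, Mmp9 and Cxcr2), and the 2 tumours were singled out by Rara, so these counts are a description.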

How the data were processed

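The authors deposited 1 linear intensity per probeset and array, from 2.38 to 19380.5. The submitters' processing notes name RMA and mm9 (no versions); background correction, scan dates and probeset positions were not given in the sources used here. The number of arrays limits the precision. Intensities were log2 transformed. Of 229581 probesets, 208397 had 1 symbol, 3965 several and 17219 none; only the first were used, with symbols updated through the GRCm38.p6 gene table. A gene's level is the median over its probesets, and 9779 of 16299 genes passed the 40th percentile. Correlations used two-sided permutation tests of 100000 resamples (Python 3.11.15, numpy 2.4.6, scipy 1.17.1) with Benjamini-Hochberg adjustment over the 9778 other genes, and limma 3.58.1 in R 4.3.3 compared 2-digit with 4-digit tumour numbers. The tests were tested on simulated data. No 2 arrays held the same values.

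Named were the 7 genes, each probeset of Pml and Rara, for the other genes the 3 probesets with the largest SD of departures, the 5 genes with the highest and the 3 with the lowest r per detected gene, and per list the 2 brightest and the 2 most variable detected genes. Departing, closely following and near-threshold probesets of those genes, and Daxx, Senp1, Ncoa3, Prmt1, Stat5b, Numa1, Irf1, Rsad2, Oasl2, the Ifit genes and the 4 neutrophil markers were added after their values were seen. The 7 genes, the lists and the tests were chosen with earlier results of these data known. Elane is listed as Ela2 in the annotation. Alternatives were the mean over probesets, other filters, centring, quantile normalization, an added intensity of 16, Spearman's rho, and leaving out arrays.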

Additional observations from a re-analysis of the deposited data

How the results depend on the processing

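The 2 genes called for Pml were 957 with the mean over probesets, 10 without the 2 tumours farthest from its median (an alternative added after seeing the data), and 0 with no filter on dim genes, with probesets above the 25th percentile, after centring or quantile normalization, without tumor_9509 and tumor_9514, in the 10 tumours with 4-digit numbers, or with Spearman's rho. The 119 genes called for Rxra were 682 with probesets above the 25th percentile, 241 without its 2 farthest tumours (added likewise), 212 with the 60th percentile filter, 8 with no filter, 4 without tumor_9509 and tumor_9514, and 0 with the mean over probesets, after centring or quantile normalization, or in the 4-digit tumours. For Rarg 4 genes were called with the mean over probesets. For Rara and Rxrb 0 were called under each of 11 alternatives. The correlation of Pml with Rarg was -0.384 with the mean over probesets, -0.187 with probesets above the 25th percentile, -0.100 after centring and -0.0946 after quantile normalization. That of Pml with Rxrb was -0.0941 with the mean and -0.0877 with probesets above the 25th percentile, and under the same 2 settings Rarg with Rxra was 0.223 (mean) and Rara with Rxrb -0.0671 (25th percentile). Rara with Rarg was -0.0392 in the 4-digit tumours, and Pml with Rara -0.00693 without tumor_9504 and tumor_31; no pair passed the test under any alternative. Departing probesets of Pml numbered 1 in the 4-digit tumours or with probesets above the 25th percentile, and 0 at 1.5 log2 units or without tumor_9509 and tumor_9514. With the 60th percentile filter no Pml probeset could be counted, as the gene itself fell below that limit. Departing probesets of Rara numbered 2 in the same 5 settings. Rxra had 2 at 1.5 log2 units and 1 without tumor_9509 and tumor_9514, and Rxrb 0 in both of these, and 2 with the mean over probesets or quantile normalization. With no filter on dim genes Rarb had 3, Rarg 4, Rxrb 3 and Rxrg 5, when 31.4% of all probesets departed. The SD of Rara over tumours was 0.38 to 0.51 over 9 alternatives and that of Pml 0.27 to 0.32. The numbering check called 0 genes under each of 10 alternatives. The cause of these changes was not tested. Low signal over background limits Rarb, Rxrg and Rarg. No paired analysis was possible because the labels give 1 group. Background correction and scan date could not be varied, as scanner files were not analysed here.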
